A study of Homo sapiens with 24 samples.

Results

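TRAIL, a secreted and membrane-bound ligand of the TNF superfamily, was added alone to HT29 cells, an established line of human colon adenocarcinoma, and the mRNA of these cultures was compared with that of cultures left without treatment. The comparison rests on 8 of the 24 arrays of the study, 4 labelled TRAIL and 4 labelled NT (untreated), which were chosen by their labels and not by any measured value. TRAIL cultures received Flag-tagged TRAIL at 100 ng/ml together with 2 µg/ml of the anti-Flag M2 antibody for 6 h, and NT cultures received neither protein. No group with the antibody alone is used here, so TRAIL and the antibody cannot be told apart. The remaining arrays come from the same cell line under SN (a diluted culture supernatant of propionibacteria), C3/C2 (30 mM propionate with 15 mM acetate), TRAIL+SN and TRAIL+C3/C2, with 4 arrays each, and serve below only as other settings in which TRAIL was added or as cultures hybridised beside TRAIL. The study describes 2 independent experiments done in duplicate, and the labels number the replicates 1 to 4 without saying which share an experiment. The p-values and SEs treat the 4 arrays of a group as independent. They measure the spread between these cultures, part of which may be technical, and may understate the spread between experiments.

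TRAIL binds the death receptors encoded by TNFRSF10A and TNFRSF10B, which recruit the adaptor FADD and caspase-8 and can thereby start the extrinsic pathway of apoptosis. The same receptors can also assemble a cytosolic complex with RIPK1, TRAF2 and ubiquitin ligases that activates the IkB kinases, and these free NF-kB dimers from their IkB inhibitors to enter the nucleus. NF-kB then switches on chemokines, cytokines, adhesion molecules and its own inhibitors; many colon cancer lines survive TRAIL alone.

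Levels below are log2 intensities of one probe per gene after subtraction of the 75th percentile of each array, and differences are log2 values, where 1 corresponds to a fold of 2. All 13 epithelial and colon markers, among them EPCAM and KRT20, were well above background on all 8 arrays. Among fibroblast markers 8 of 10 were above background on none of the 8 arrays. Among endothelial markers 4 of 7 were above background on all 8 arrays and TEK was called lower (-1.85), with a summed linear level of 0.906 to 1.05 in NT and 0.889 to 1.02 with TRAIL. The summed linear level of the fibroblast markers (relative to the 75th percentile) was 0.277 to 0.311 in NT and 0.191 to 0.253 with TRAIL, against 1028 to 1150 and 1369 to 1510 for the epithelial markers. The 75th percentile of intensity was 745 to 1009 in NT and 631 to 683 with TRAIL, no spot was saturated, and arrays of one group correlated across genes with r of 0.993 to 0.996, where genes are not independent replicates. All TRAIL arrays lay on 1 slide, with those of SN. NT replicate 1 lay on a second slide, scanned on another day, and NT replicates 2 to 4 on yet another. TRAIL and slide are therefore confounded in the comparison with NT.

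TRAIL raised a small set of genes. The 10 named genes with the largest rises were taken among those whose TRAIL arrays all lay above all NT arrays. They were the chemokine genes CCL20, IL8 and CXCL1, the cytokine genes TNF, LTB, IL17C and IL32, and UBD, IL4I1 and ICAM4. Of 20689 genes tested, 155 lay higher with TRAIL (0.749%) and 450 lower (2.18%), called at a 2-fold or larger difference and an adjusted p below 0.05 in limma's moderated test with Benjamini-Hochberg adjustment. Among the 155 genes, 119 rose between 2- and 4-fold, 21 between 4- and 8-fold and 15 by 8-fold or more. In 136 of them every TRAIL array lay above every NT array, a pattern that 20.7% of all genes tested showed in that direction. With the arrays scaled on the E1A spike-in probes in place of the 75th percentile, the counts were 83 higher and 797 lower. That scaling lowers the median difference of all genes by 0.27, from 0.03 to -0.24, while the array median raises it by 0.10. Of the 155 genes 115 carry a gene name, and the other 40 are unnamed transcripts, as are 6647 of the 20689 genes tested.

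**Figure D1:**
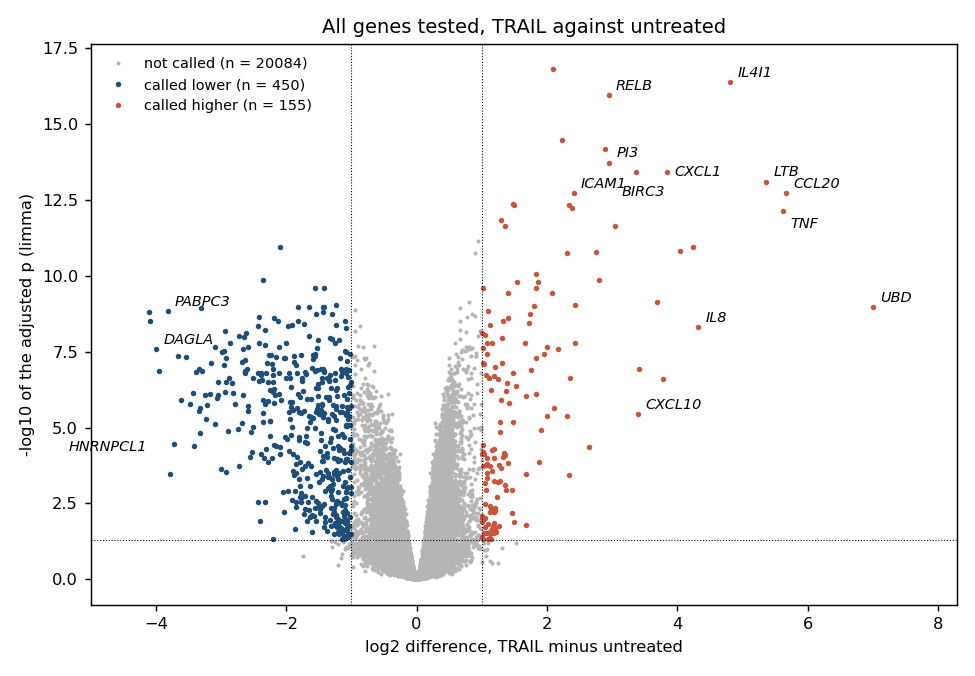
Each point is 1 of the 20689 genes, with the log2 difference between TRAIL and untreated cells on the horizontal axis and the negative log10 of the adjusted p (limma) on the vertical axis. The 155 genes called higher reach a log2 difference of 7.01 (UBD), farther from 0 than any of the 450 called lower, and dotted lines mark the fold of 2 and the adjusted p of 0.05.

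No receptor of TRAIL was called. TNFRSF10B (TRAIL-R2, DR5) had levels of 2.20, 2.32, 2.17 and 2.26 in NT replicates 1 to 4 and of 2.95, 3.07, 2.94 and 3.22 with TRAIL. The groups did not overlap, and the difference of 0.81 (SE 0.10, adjusted p = 4.76e-06 in limma) stayed below the fold of 2. TNFRSF10A (TRAIL-R1, DR4) ran from -0.84 to -0.42 in NT and from -0.13 to 0.03 with TRAIL, again without overlap, with a difference of 0.57 (SE 0.09, adjusted p = 6.54e-05). Differences that passed the adjusted p at any fold were common here, with 20.4% of all genes higher and 13.1% lower. The decoy receptors TNFRSF10D (0.05, adjusted p = 0.66) and TNFRSF11B, the soluble receptor osteoprotegerin (0.04, adjusted p = 0.79), and TNFSF10, which encodes TRAIL itself (0.26, adjusted p = 0.21), did not pass the test. With the replicate number as a block the adjusted p of TNFSF10 was 0.0082, still below the fold of 2, and its groups did not overlap. With spike-in scaling the differences of TNFRSF10D, TNFRSF11B and TNFSF10 were -0.23, -0.23 and -0.02. The remaining decoy receptor, TNFRSF10C, was too dim on all 8 arrays to be called above background.

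Among 26 genes of the death receptor signalling complexes, 2 were called higher, BIRC3 and TNFAIP3, and none lower, with a median difference of 0.15 (-0.13 with spike-in scaling) against 0.03 for all genes. FADD, the adaptor of the death receptors, differed by 0.15 (adjusted p = 0.078, and 0.011 with the replicate block) and CASP8, the initiator caspase, by -0.11 (adjusted p = 0.33). CFLAR, which encodes the caspase-8 inhibitor FLIP, differed by 0.05 (adjusted p = 0.77), while 3 other probes of it gave 0.29 to 0.44, of which 2 had an adjusted p under 0.05. XIAP, an inhibitor of caspases, differed by -0.13 (adjusted p = 0.12), and its other probe by -0.34 (adjusted p = 0.00074, over all probes), below the fold of 2. The survival genes MCL1 (0.15, adjusted p = 0.021) and BCL2L1 (0.18, adjusted p = 0.011) passed the adjusted p but not the fold, and with spike-in scaling FADD, CFLAR, MCL1 and BCL2L1 all turned negative, at -0.13, -0.22, -0.12 and -0.09. In the list of BCL2, IAP and caspase genes 1 of 34 was called, the same BIRC3.

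Among the 16 lists the NF-kB genes were called in the largest share, just ahead of the chemokines (40%). The lists were chosen with earlier results of these data known, so this order is a description and not a test. Of 18 tested NF-kB subunits, inhibitors and feedback regulators 8 were called higher, or 44.4% against 0.749% of all genes, and none lower, with a median difference of 0.87. The number called was 8 under every alternative that kept the minimum fold, whereas it ranged from 3 to 8 for chemokines, 4 to 9 for cytokines, 2 to 7 for receptors, 0 to 5 for immediate early genes and 0 to 3 for growth arrest genes. BIRC3, a ubiquitin ligase of the receptor complex and a classical NF-kB target, had levels of -1.09, -0.72, -1.36 and -1.56 in NT and of 2.20, 2.05, 2.16 and 2.31 with TRAIL. The highest NT culture lay far below the lowest TRAIL culture, and the rise was 10.3-fold (log2 3.36, SE 0.12, adjusted p = 3.85e-14). RELB, the NF-kB subunit of the non-canonical pathway, went from 1.88 to 2.25 in NT to 5.02 to 5.10 with TRAIL, a rise of 2.95 (SE 0.08). Its partner NFKB2, the precursor of p52, rose by 2.38 (SE 0.10), from levels of -1.78 to -1.34 to levels of 0.69 to 0.85. The TRAIL cultures lay close together and well above NT for both subunits. The other subunits, NFKB1 (0.89), RELA (0.38) and REL (0.35), passed the adjusted p but not the fold and were not called.

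Some inhibitors and feedback regulators were also called, whereas NFKBIB (0.54), NFKBID (0.29), NFKBIZ (0.35), TNIP2 (0.09) and CYLD (0.21) were not. MAP3K14 (0.85) and MAP3K8 (0.18), kinase genes of the list, were not called either. TNFAIP3, which encodes the deubiquitinase A20 that ends NF-kB signalling, had levels of -3.68, -3.69, -3.64 and -3.86 in NT and of -0.85, -0.73, -1.13 and -0.61 with TRAIL, a rise of 7.41-fold (log2 2.89, SE 0.09). NFKBIA, encoding IkB-alpha, rose by 1.73 (SE 0.13) from 2.27 to 2.44 to levels of 3.92 to 4.25, and NFKBIE, encoding IkB-epsilon, by 2.09 (SE 0.05, adjusted p = 1.55e-17) from 1.00 to 1.14 to levels of 3.17 to 3.23. All these groups were separated. BCL3, a nuclear member of the IkB family, rose by 1.87, and TNIP1, a partner of A20, by 1.49. Outside the list, ZC3H12A, which encodes the RNase Regnase-1, rose by 1.05, and IKBKE, which encodes an IkB kinase, by 1.02.

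The promoters of the induced genes were searched for the kappaB decamer GGGRNWYYCC, a consensus for NF-kB dimers, and for the AP-1 heptamer TGANTCA. R stands for A or G, W for A or T, Y for C or T and N for any base. Only exact matches counted, on both strands of the 250 bases before each gene's start in RefSeq (GRCh38.p14). A promoter was matched by symbol or synonym for 11634 of the 20689 genes tested, 89 of the 155 called higher and 103 of the 450 called lower. At least 1 kappaB decamer was present in 29 of the 89 promoters of induced genes (32.6%), in 5.98% of those of all genes tested, in 5.21% of all 35116 promoters of the table and in 3 of the 103 promoters of genes called lower (2.91%). TGANTCA was present in 8 of the 89 (8.99%), in 4.26% of those of all genes tested and in 6.57% of all promoters. These are matches of letters in one window, not sites of binding, and the share was not tested.

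Promoters of 9 of these genes are shown, all picked among those that hold a match. They include inhibitors of NF-kB signalling, neighbouring chemokine genes of chromosome 4, and CCL20 and UBD from the largest rises. Each line gives the 250 bases before the start, 5′ to 3′ on the strand of the gene, and capitals mark the kappaB decamers on either strand, joined where 2 overlap. The windows are chr14:35404750-35404999 (minus strand) for NFKBIA, chr6:137867009-137867258 (plus) for TNFAIP3, chr11:102317234-102317483 (plus) for BIRC3, chr4:73869143-73869392 (plus) for CXCL1, chr4:74099196-74099445 (minus) for CXCL2, chr4:74038690-74038939 (minus) for CXCL3, chr4:73836428-73836677 (plus) for CXCL6, chr2:227813592-227813841 (plus) for CCL20 and chr6:29559733-29559982 (minus) for UBD.
NFKBIA: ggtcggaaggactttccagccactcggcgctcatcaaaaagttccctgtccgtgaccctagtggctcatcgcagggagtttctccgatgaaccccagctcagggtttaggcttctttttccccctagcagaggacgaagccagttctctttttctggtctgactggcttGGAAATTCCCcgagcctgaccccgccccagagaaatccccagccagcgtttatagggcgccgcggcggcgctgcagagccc
TNFAIP3: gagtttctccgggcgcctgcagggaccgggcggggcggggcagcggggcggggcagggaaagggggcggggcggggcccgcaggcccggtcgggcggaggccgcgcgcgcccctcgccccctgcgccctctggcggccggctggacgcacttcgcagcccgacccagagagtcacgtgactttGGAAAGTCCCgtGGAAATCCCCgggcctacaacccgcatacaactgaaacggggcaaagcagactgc
BIRC3: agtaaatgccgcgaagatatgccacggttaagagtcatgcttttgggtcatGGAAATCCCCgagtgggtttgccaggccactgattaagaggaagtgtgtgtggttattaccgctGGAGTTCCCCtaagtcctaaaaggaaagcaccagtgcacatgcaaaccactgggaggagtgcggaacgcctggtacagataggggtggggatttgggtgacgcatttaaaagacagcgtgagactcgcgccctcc
CXCL1: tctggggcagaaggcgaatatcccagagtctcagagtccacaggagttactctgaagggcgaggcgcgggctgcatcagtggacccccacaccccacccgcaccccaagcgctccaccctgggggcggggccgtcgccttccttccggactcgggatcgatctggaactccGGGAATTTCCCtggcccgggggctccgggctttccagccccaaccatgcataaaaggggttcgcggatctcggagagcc
CXCL2: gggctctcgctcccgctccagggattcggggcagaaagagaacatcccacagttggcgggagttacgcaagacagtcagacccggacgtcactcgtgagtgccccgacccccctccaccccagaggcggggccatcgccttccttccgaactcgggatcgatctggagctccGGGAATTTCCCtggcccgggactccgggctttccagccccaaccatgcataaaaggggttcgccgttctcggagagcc
CXCL3: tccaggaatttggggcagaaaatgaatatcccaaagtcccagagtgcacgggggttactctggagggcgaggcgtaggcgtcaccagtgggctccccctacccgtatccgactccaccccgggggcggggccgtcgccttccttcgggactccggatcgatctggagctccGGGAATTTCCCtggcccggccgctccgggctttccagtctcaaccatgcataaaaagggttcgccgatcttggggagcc
CXCL6: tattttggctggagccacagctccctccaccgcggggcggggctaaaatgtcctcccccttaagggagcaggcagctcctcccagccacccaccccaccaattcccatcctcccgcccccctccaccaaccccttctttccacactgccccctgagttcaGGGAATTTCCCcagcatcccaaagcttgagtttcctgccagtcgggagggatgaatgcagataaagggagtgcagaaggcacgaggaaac
CCL20: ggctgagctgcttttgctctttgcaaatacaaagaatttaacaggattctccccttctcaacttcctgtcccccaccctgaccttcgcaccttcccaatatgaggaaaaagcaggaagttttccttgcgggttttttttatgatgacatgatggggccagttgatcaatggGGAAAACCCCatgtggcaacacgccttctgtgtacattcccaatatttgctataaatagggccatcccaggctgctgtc
UBD: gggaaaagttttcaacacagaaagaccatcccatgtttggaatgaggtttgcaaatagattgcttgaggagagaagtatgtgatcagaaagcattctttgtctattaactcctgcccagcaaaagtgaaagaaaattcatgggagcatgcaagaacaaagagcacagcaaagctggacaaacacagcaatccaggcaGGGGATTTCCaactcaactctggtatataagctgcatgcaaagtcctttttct

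The chemokine genes CXCL1, CXCL2, CXCL3 and CXCL6 all hold the same 11 letters, GGGAATTTCCC, which contain 1 decamer on each strand, and the match begins 79, 78, 79 and 90 bases before the start. In BIRC3 and in TNFAIP3 there are 2 separate decamers. Among the genes without an exact match in this window are TNF, IL8, ICAM1, IL4I1, ICAM4, BCL3, NFKB2 and ZC3H12A, all called higher. CFLAR, which was not called, holds 1 decamer. IL8 (tggaatttcc) and ICAM1 (tggaaattcc) hold a stretch that differs from the pattern only in its first letter. Such near matches were not counted, so the lack of a match does not mean the lack of a site.

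Chemokines, the secreted attractants of leukocytes, held 8 called genes among 20 tested, with a median of 0.26 over the list (-0.01 with spike-in scaling). CCL20, the ligand of CCR6 that attracts dendritic cells and Th17 cells, had levels of -5.73, -5.79, -4.85 and -5.13 in NT and of -0.05, -0.01, 0.44 and 0.83 with TRAIL. The groups lay far apart, and the rise was 51.1-fold (log2 5.67, SE 0.23, adjusted p = 1.88e-13), although only 2 of the NT arrays were well above background. CXCL1, a neutrophil attractant that HT29 cells made without treatment, had levels of -0.89, -0.90, -1.03 and -1.25 in NT and of 2.63, 2.66, 2.89 and 3.14 with TRAIL, a rise of 14.4-fold (log2 3.85, SE 0.14). A second probe of CXCL1 gave 3.75. Its neighbours CXCL2 and CXCL3 rose by 3.04 (SE 0.14) and 2.75 (SE 0.14), again with no overlap between the groups.

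IL8, the array's name for the gene of the neutrophil attractant CXCL8, stood clear of background on no NT array. Its levels were -7.23, -6.06, -7.04 and -6.02 there and -2.61, -2.40, -2.25 and -1.79 with TRAIL, which makes it at least 11-fold higher (fitted log2 difference 4.32, adjusted p = 4.79e-09). The other probe of IL8 gave 0.82 and was not called. CXCL6, of the same receptor family, was at least 2.24-fold higher. CXCL10, the interferon-inducible ligand of CXCR3, rose by 3.40 (SE 0.42, adjusted p = 3.61e-06), and CX3CL1, or fractalkine, by 1.90. Only 1 NT array was above background for each of these genes. CXCL5, a close relative of CXCL6, went the other way, from a mean of -1.76 in NT to -3.98 with TRAIL (log2 difference -2.22), and is taken up again with the falls.

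**Figure D2:**
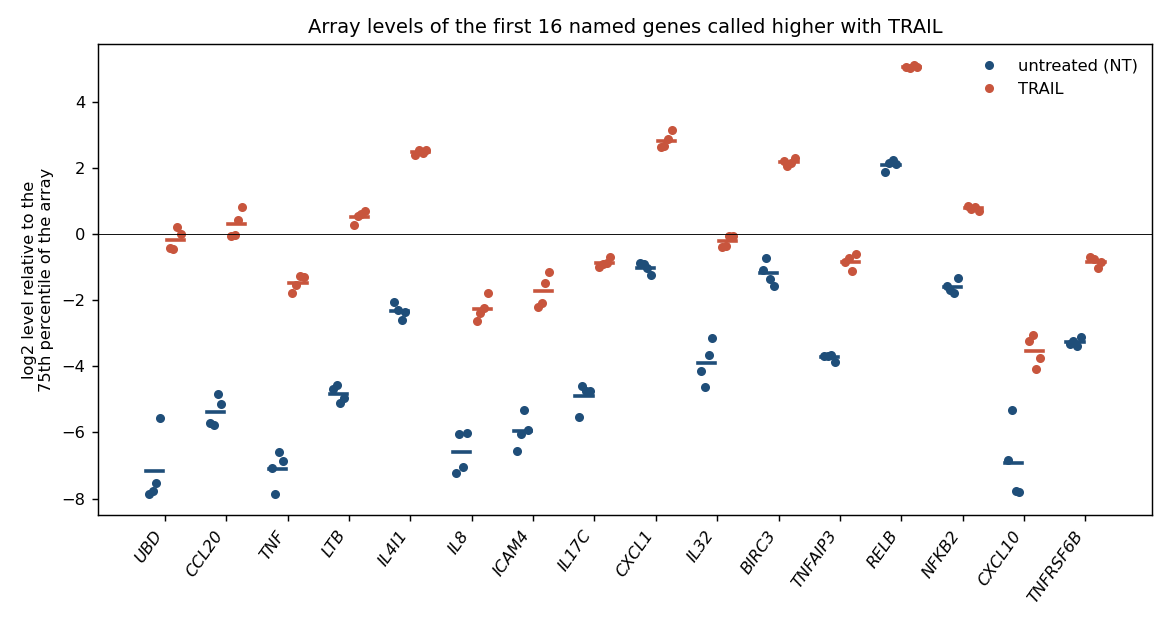
Points are arrays and bars the means of 4 arrays, in untreated cells and with TRAIL, on a vertical axis of log2 level minus the array's 75th percentile. The groups do not overlap for any of the 16 genes shown, which for the first 10 was a condition of their choice. No untreated array was well above background for UBD, TNF or IL8.

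Of 28 tested cytokines and TNF family ligands 8 were called higher and none lower. TNF, the founding member of the family, was below that limit on every NT array, with levels of -7.07, -7.86, -6.59 and -6.86, and lay at -1.78, -1.55, -1.27 and -1.29 with TRAIL. It was at least 19.0-fold higher (adjusted p = 7.39e-13). LTB, which encodes the membrane anchor lymphotoxin-beta, had levels of -4.69, -4.57, -5.12 and -4.96 in NT and of 0.27, 0.56, 0.60 and 0.69 with TRAIL, a rise of 41.2-fold (log2 5.36, SE 0.20) with all arrays above background. The epithelial cytokine IL17C rose by 4.04 (SE 0.21) and IL32, an inducer of TNF in other cells, by 3.69 (SE 0.24). IL23A, the p19 subunit of interleukin-23, rose by 1.83 and FLT3LG, a growth factor of dendritic cells, by 1.29. CSF2, which encodes GM-CSF, was at least 6.04-fold higher and IL1B at least 1.18-fold higher, with 2 of 4 TRAIL arrays above background for IL1B.

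Among 41 cytokine and TNF family receptors 6 were called, with TNFRSF6B far ahead. This gene encodes DcR3, a soluble decoy for FAS ligand, LIGHT and TL1A, and its levels of -3.32, -3.24, -3.38 and -3.12 in NT stood against -0.69, -0.76, -1.04 and -0.86 with TRAIL, a rise of 5.38-fold (log2 2.43, SE 0.20). IFNGR1, a chain of the interferon-gamma receptor, rose by 1.31 (SE 0.10), IL2RG, the common gamma chain, by 1.20 (SE 0.11) and IL27RA by 1.04 (SE 0.33, adjusted p = 0.019). IL6ST (gp130) and TNFRSF9 (4-1BB) were near the limit, at 1.02 and 1.00, and none of the 8 arrays was well above background for TNFRSF9. Of 28 innate sensors and adaptors only IRAK2, a kinase below the interleukin-1 and Toll-like receptors, was called, with a rise of 1.36 (SE 0.06).

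IL4I1, an enzyme that degrades aromatic amino acids, was in none of the lists. Its levels were -2.07, -2.31, -2.59 and -2.34 in NT and 2.40, 2.54, 2.46 and 2.53 with TRAIL, a rise of 28.0-fold (log2 4.81, SE 0.11, adjusted p = 4.02e-17). ICAM4, an adhesion molecule first known as a red cell blood group antigen, rose by 4.24 (SE 0.22), with 1 NT array above background. In the list of adhesion, matrix and protease genes, 7 of 31 were called higher and ITGA2 lower. ICAM1, the ligand of leukocyte integrins and a classical NF-kB target, ran from -1.95 to -1.69 in NT and from 0.37 to 0.81 with TRAIL, a rise of 5.33-fold (log2 2.41, SE 0.10). CD83 rose by 2.31 (SE 0.12), ICAM2 by 2.01 (SE 0.25), the heparan sulphate proteoglycan SDC4 by 1.81 (SE 0.12) and the laminin chain LAMA3 by 1.15. ITGAM, a leukocyte integrin chain and the 1 leukocyte marker of 12 that was called, rose by 2.33 (SE 0.10). The summed leukocyte markers reached 1.94 to 2.55 in NT and 2.05 to 2.87 with TRAIL, with 5 of 12 above background on no array.

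UBD, which encodes the ubiquitin-like protein FAT10, showed the largest fitted difference of all genes. No NT array was well above background, with levels of -7.86, -7.78, -7.52 and -5.55, and with TRAIL the levels were -0.43, -0.46, 0.21 and -0.01, at least 46.6-fold higher (adjusted p = 1.08e-09). The order of UBD, TNF and IL8 among the largest rises is not established, since their NT levels have only a bound. In the list of 50 interferon response and antigen presentation genes only UBD, TAP1 and IRF1 were called higher (6% against 0.749% of all genes). The median difference of the list was 0.45, and 0.17 with spike-in scaling. At any fold, 19 of the 50 were higher with an adjusted p under 0.05 in limma and none lower, where 20.4% of all genes were higher. TAP1, a peptide transporter of antigen presentation, had levels of 2.40, 2.59, 1.64 and 1.67 in NT and of 3.68, 3.90, 3.03 and 3.14 with TRAIL. Replicates 1 and 2 lay above replicates 3 and 4 in both groups, and the rise of 1.36 (SE 0.28, adjusted p = 0.00076) had an SE of 0.07 with replicates 1 and 2 against 3 and 4 as a block, an alternative added after seeing the data. IRF1, a transcription factor, rose by 1.04 (SE 0.10).

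Smaller groups followed. Of 39 immediate early and MAP kinase feedback genes 2 were called, FOSB (1.07, SE 0.19) and the ERK phosphatase DUSP5 (1.13, SE 0.08). At any fold, 24 of the 39, these 2 included, were higher with an adjusted p under 0.05 in limma. By the same measure 20.4% of all genes and 8 of 16 reference genes were higher. The median difference of the immediate early list was 0.40, and 0.13 with spike-in scaling. Of 23 epithelial defence genes 3 were called. PI3, which encodes the elastase inhibitor elafin, had levels of -0.30, -0.33, -0.48 and -0.10 in NT and of 2.43, 2.48, 2.89 and 2.82 with TRAIL, a rise of 7.77-fold (log2 2.96, SE 0.10). PTGS2, the inducible cyclooxygenase, rose by 2.10 (SE 0.25) and PIGR, the transporter of secretory immunoglobulins, by 1.28 (SE 0.17). Of 28 growth arrest genes CDKN1A, which encodes the cell cycle inhibitor p21, rose by 1.31 (SE 0.12) and PHLDA3 by 1.02 (SE 0.15).

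No gene was called among 23 amino acid and endoplasmic reticulum stress genes (median 0.29), 32 proliferation genes (median 0.00) and 16 reference genes (median 0.21, and -0.07 with spike-in scaling). Over all 16 lists, 48 of 435 genes tested were called higher and 2 lower. The other 67 named genes called higher lay outside the lists, among them TNFAIP2 (2.23), the kallikrein KLK10 (2.17), the ubiquitin ligase TRIM31 (1.40), the transducer of TGF-beta signals SMAD3 (1.09) and the gastric mucin MUC5AC (1.08), which were chosen after their values were seen.

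**Figure D3:**
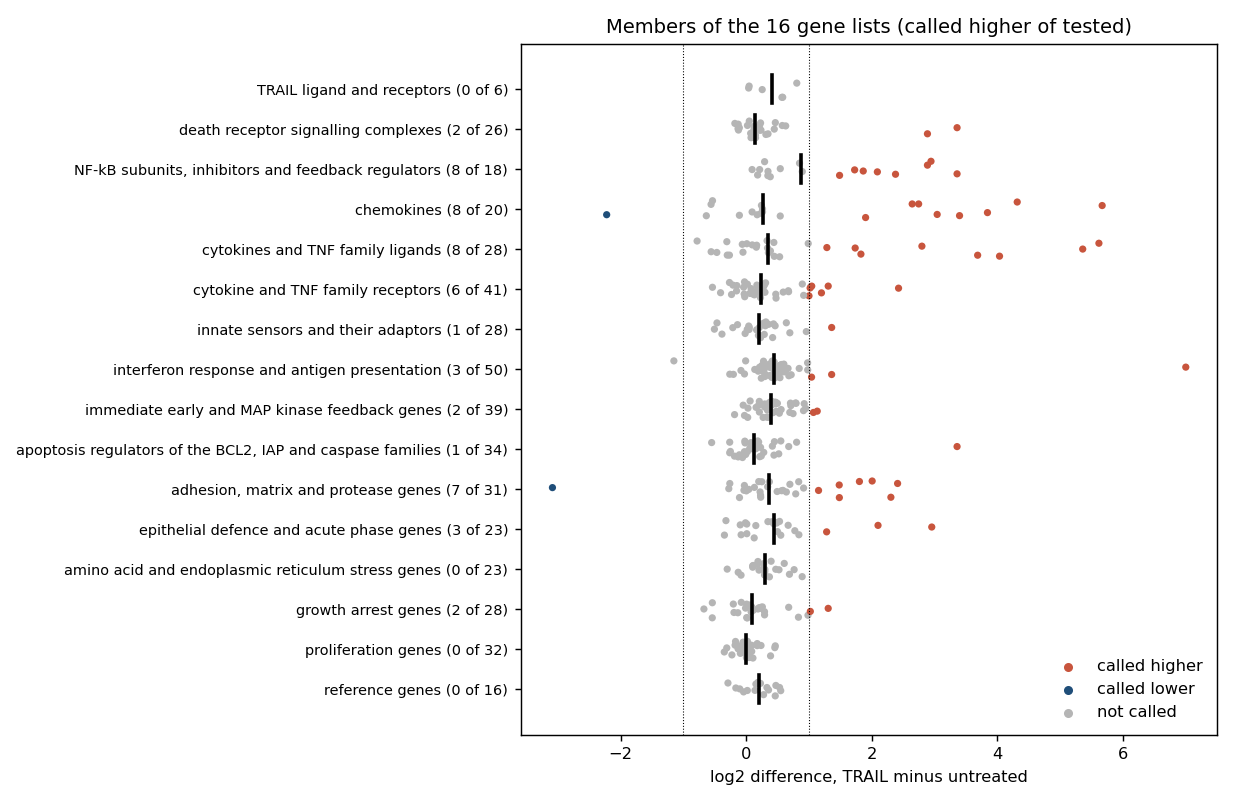
Each point is a tested gene of 1 of 16 lists, placed by its log2 difference between TRAIL and untreated cells, and vertical bars mark the medians. The counts beside the names give the members called higher of those tested, from 8 of 18 for NF-kB genes to 0 of 32 for proliferation genes, and dotted lines mark a fold of 2.

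Whether these rises appear when TRAIL is added in another setting was examined in TRAIL+C3/C2 against C3/C2 and in TRAIL+SN against SN, which share no array with TRAIL against NT or with each other. TRAIL+C3/C2 against C3/C2 compares slide 4 with slides 1 and 2, and TRAIL+SN against SN compares slide 4 with slide 3. With propionate and acetate present, 331 genes were called higher when TRAIL was added (1.60%), and with the supernatant 188 (0.909%). Of the 155 genes, 77 were among the 331 (49.7% of the former and 23.3% of the latter), 57 were among the 188 (36.8% and 30.3%), and 50 were called in all 3 comparisons. Differences above 0 were found for 148 and 143 of the 155, against 11273 and 11043 of all 20689 genes. The medians of the 155 were 1.00 and 0.69, where the medians of all genes were 0.03 and 0.02. The 50 genes include BIRC3, RELB, NFKB2, NFKBIA, NFKBIE, BCL3, TNFAIP3, CXCL1, CXCL2, CXCL3, CXCL6, IL8, CCL20, TNF, LTB, IL17C, IL23A, IL32, CSF2 and ICAM1. The kappaB decamer was present in 16 of the 35 promoters matched for them (45.7%).

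**Figure D4:**
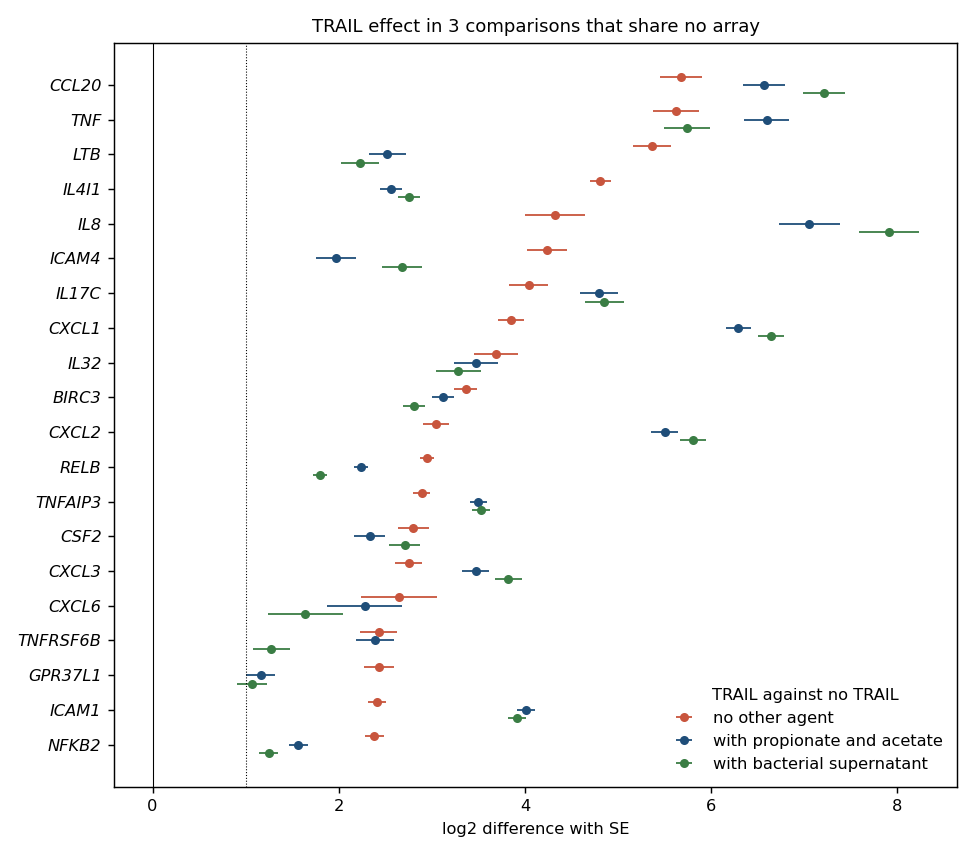
Points are log2 differences with and without TRAIL, and horizontal bars their SE, in cells given no other agent, propionate and acetate (C3/C2) or bacterial supernatant (SN). The 20 named genes with the largest rises among those called in all 3 comparisons are shown. Every point lies above the dotted line at a fold of 2, which the calls required.

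The size of the rise differed between settings for some of these genes, by the interaction test of the same limma fit. CXCL1 rose by 3.85 with TRAIL alone, by 6.29 in C3/C2 and by 6.64 in SN (adjusted p of the difference 1.50e-07 and 3.52e-08). ICAM1 likewise rose by 2.41, 4.01 and 3.91. LTB rose by 5.36, 2.52 and 2.23, though no SN array was well above background for it, and IL4I1 by 4.81, 2.56 and 2.75. PI3 rose by 2.96 with TRAIL alone, 1.30 in C3/C2 and 0.70 in SN. UBD, at least 46.6-fold higher with TRAIL alone, was above background on 1 array of TRAIL+C3/C2 and on none of TRAIL+SN.

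Within slide 3, TRAIL could be compared with SN, a treatment with its own effects. That comparison shares the TRAIL arrays with the one against NT and called 1656 genes higher (8.0%) and 2711 lower (13.1%), so it does not isolate TRAIL. CXCL1 was 4.84 higher than in SN, LTB 6.71, IL8 4.73, UBD 6.93, IL4I1 3.11 and RELB 1.95. Of the 155 genes, 60 were called higher than in SN, 23 lower and 72 neither. BIRC3 (0.55), TNFAIP3 (0.88), NFKB2 (0.72), NFKBIE (0.29), ICAM4 (0.48) and SDC4 (-0.17) were not called against SN, and of the 8 NF-kB genes called against NT only RELB and NFKBIA were. The median difference of the 155 genes was 1.30 in TRAIL against NT, 0.93 in SN against NT and 0.77 in C3/C2 against NT, comparisons that share the NT arrays. CDKN1A was 2.97 lower than in SN, IL1B 3.16, DUSP5 2.11 and FOSB 1.90. For these 4 genes the rise over NT stood beside a higher level in SN on the same slide.

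Most genes called lower were unnamed transcripts. Of the 450, 291 are unnamed transcripts, as are 6647 of all 20689 genes tested. For 129 of the 450 no TRAIL array was well above background. The 3 largest named falls among separated groups were DAGLA, a lipase that makes 2-arachidonoylglycerol, PABPC3 and HNRNPCL1. PABPC3, an intronless relative of the poly(A)-binding protein gene PABPC1, had levels of 2.44, 3.56, 3.90 and 3.80 in NT and of -0.38, -0.52, -0.46 and -0.22 with TRAIL, a difference of -3.82 (SE 0.26, adjusted p = 1.48e-09). Its parent PABPC1 differed by 0.09 (adjusted p = 0.24), and the array cannot be taken to tell near-identical copies apart. HNRNPCL1, an intronless relative of HNRNPC, was at least 11.5-fold lower and DAGLA at least 3.76-fold lower, with no TRAIL array above background. In all 3 genes NT replicate 1, on its own slide, was the lowest of the NT arrays.

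The genes called lower were also examined in the other settings. In TRAIL+C3/C2 against C3/C2, also between slides, 441 genes were called lower (2.13%), 325 of them among the 450, whose median difference was -1.42. In TRAIL+SN against SN, between slides 4 and 3, 34 genes were called lower (0.164%), 4 of them among the 450, and the median of the 450 was -0.03. Between NT replicate 1 and the other NT replicates, which had the same treatment but another slide, the 450 genes differed by a median of -0.50 and the 155 genes by 0.08. These NT arrays also entered the choice of the genes, so those 2 medians are not independent of it. C3/C2 replicate 1 differed from the other C3/C2 replicates by -0.56 and 0.09 in the same 2 sets. The difference of PABPC3 was -4.22 in C3/C2 and -0.26 in SN (adjusted p = 0.54 in limma for the latter), and that of CXCL5 -1.83 and -0.06. Further comparisons that share arrays with the one that chose the genes are given beside these. In SN against NT, slide 3 against slides 1 and 2 without TRAIL, the median of the 450 was -1.65. It was -0.11 in C3/C2 against NT, both on slides 1 and 2, and 0.10 in TRAIL against SN, both on slide 3. The medians of all genes were -0.02, 0.08 and 0.02. Slide and TRAIL cannot be told apart for these falls in the comparison with NT, and their cause was not tested.

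**Figure D5:**
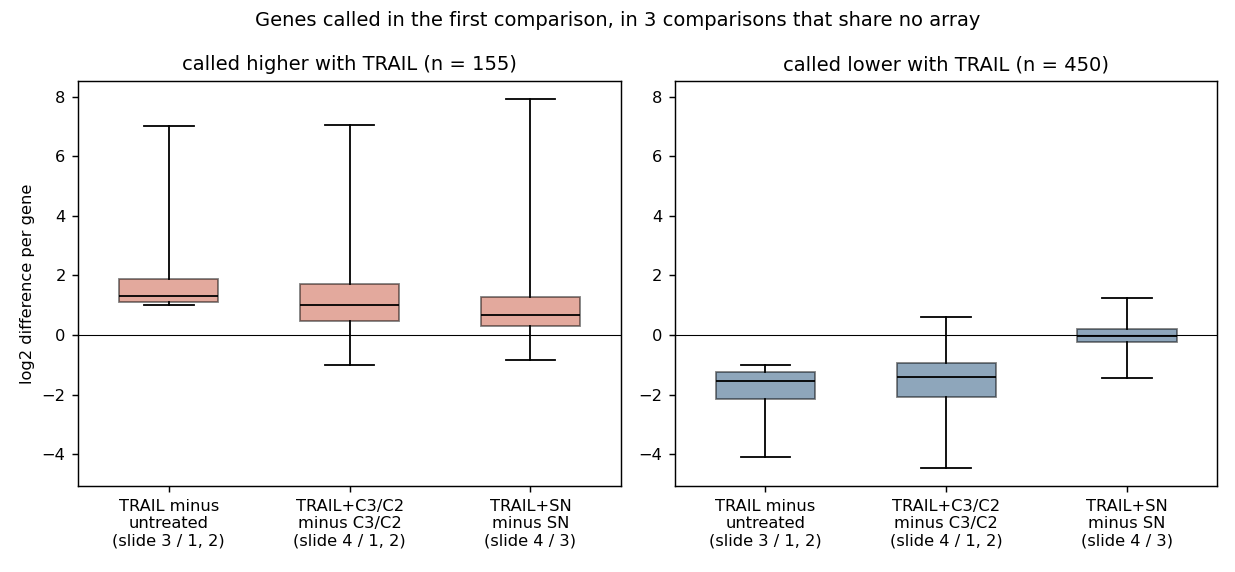
Boxes span the quartiles and whiskers the full range of log2 differences over the 155 genes called higher and the 450 called lower with TRAIL, in 3 comparisons that share no array, with the slides compared given in parentheses. Medians of the higher genes were 1.30, 1.00 and 0.69, and those of the lower genes -1.54, -1.42 and -0.03; the first box of each panel was set by the choice of genes.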

How the data were processed

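Cy3-labelled RNA of HT29 cultures was hybridised to 1-colour Agilent 8x60K arrays. The deposited spot intensity was made by the authors with Agilent Feature Extraction (version 10.7.3.1 per the file headers), which subtracts background and spatial trends and does not normalize between arrays. The raw mean signal and local background intensity, deposited in the same files, were used for 1 alternative. The deposited table holds, as a ratio per the values, the same intensity divided by the array median. The steps the study ran in Rosetta Resolver were not repeated. Here the log2 values were taken relative to the 75th percentile of each array. Outlier spots were left out, spots of a probe were averaged, and 27957 of 50599 probes were kept, those that all 4 arrays of some group measured well above background (21 more with a missing value were not). The probe with the highest mean stood for its gene, which gave 20689 genes. Coordinates of probes are hg19 and those of promoters GRCh38.p14.

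The 6 group means were fitted over 24 arrays with limma 3.58.1 in R 4.3.3 (18 residual degrees of freedom), with eBayes and Benjamini-Hochberg adjustment over all genes tested, and a gene was called at a fold of 2 and an adjusted p under 0.05. The median SE of a difference was 0.11, and the number of arrays limits the precision. For a group with every array too dim, a bound was taken against the lowest level well above background on each array or the probe's own level. The script was tested on simulated data.

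Named genes are the 10 largest rises with separated groups, up to 4 of each of 16 gene lists, the TRAIL receptors with FADD, CASP8, CFLAR, XIAP, MCL1, BCL2L1 and CDKN1A, and the 3 largest falls. The members and lists were chosen with earlier results of these data known. Deviations from the group means of NT and TRAIL arrays with the same replicate number correlated at 0.14 to 0.23. A fit with the replicate number as a block was therefore run as an alternative, while the main fit left the arrays unpaired. Unlike numbers within replicates 1 and 2, or within 3 and 4, also correlated, at 0.034 to 0.19. These values therefore do not single out pairing by number. The other alternatives were the scaling, the background correction, the deposited table, the filter, the choice of probe, the threshold, the arrays fitted, the slide as a random block and leaving out each array in turn.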

Additional observations from a re-analysis of the deposited data

Results flagged for a closer look

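In 4 of 96 groups of 4 arrays, over the named genes in NT and TRAIL, 1 array stood apart from the others by Dixon's criterion, which chance does in about 1 of 20 groups. UBD was at -5.55 in NT replicate 4, with the next array at -7.52 and the farthest at -7.86, none of them well above background. IL17C was at -5.53 in NT replicate 1, against -4.75 to -4.60 in the others. CFLAR was at 0.57 in TRAIL replicate 4, against 0.22 to 0.26. DAGLA was at -4.81 in NT replicate 1, against -3.20 to -3.0.

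The effect of TRAIL differed from that in untreated cells by at least 2-fold, with an adjusted p under 0.05 for the interaction in limma, for 11 named genes in C3/C2 and for 19 in SN. These differences share the NT and TRAIL arrays, and the slides compared differ between them. In C3/C2 the effect was larger for IL8 (difference of the log2 effects 2.73), CXCL1 (2.45) and ICAM1 (1.60). It was smaller for UBD (-4.78), LTB (-2.84), ICAM4 (-2.26), IL4I1 (-2.25), PI3 (-1.66), ICAM2 (-1.46), PTGS2 (-1.37) and IL2RG (-1.27). In SN the effect was larger for IL8 (3.59), CXCL1 (2.79), CCL20 (1.54) and ICAM1 (1.5). It was smaller for UBD (-6.68), LTB (-3.13), CXCL10 (-2.50), PI3 (-2.26), IL4I1 (-2.06), PTGS2 (-1.77), ICAM4 (-1.56), ICAM2 (-1.33), TNFRSF6B (-1.16), RELB (-1.15), NFKB2 (-1.13) and IFNGR1 (-1.04). For the falls DAGLA (3.80), HNRNPCL1 (3.58) and PABPC3 (3.56) the difference in SN was close to the size of the fall itself. IL8 was not well above background in any array of NT, C3/C2 or SN, UBD in none of NT, C3/C2, SN or TRAIL+SN, and CXCL10 in none of C3/C2, SN or TRAIL+SN, so these fitted differences have no exact size. The same holds for the falls DAGLA and HNRNPCL1, which were not well above background with SN, and for LTB, which was not with SN.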

How the results depend on the processing

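Of 33 named genes called higher, 25 kept their call under every one of 24 alternatives that tested them, and none turned its sign. The other 8 lost it in 1 to 7 alternatives: PHLDA3 in 7, FOSB in 4, IL27RA and IRF1 in 3, IL2RG and DUSP5 in 2, and PIGR and CDKN1A in 1 each; normexp background correction was among them for all 8. DAGLA lost its call as lower with normexp. The counts below are genes higher and lower with TRAIL than in NT, higher and lower than with SN, higher with TRAIL+C3/C2 than with C3/C2 and higher with TRAIL+SN than with SN. Spike-in scaling gave 83, 797, 856, 4133, 140 and 46, normexp 65, 173, 943, 1424, 167 and 71, and no minimum fold 4211, 2711, 7011, 6725, 4413 and 2520. With no filter on dim probes, 340 were higher than in NT, 1433 in C3/C2 and 445 in SN. With genes above background on all 24 arrays, which are 17044, the counts were 84, 226 and 1745 (lower than with SN), 168 and 94. The array median and the deposited table, which give the same values, put 2582 higher than with SN. Without the filter 151 of the 155 genes were still called, and with the array median all 155. Leaving out 1 of the 8 arrays gave 140 to 176 genes higher and 426 to 492 lower, and at least 125 of the 155 stayed called. The replicate block gave 160 and 455, of which 154 and 450 were among the 155 and the 450, and changed no call of a named gene, though the adjusted p of TNFSF10 and FADD fell under 0.05. The slide as a random block gave 150 and 445. As alternatives added after seeing the data, without slide 1 the counts were 175 and 487, and with replicates 1 and 2 against 3 and 4 as a block 159 and 456.

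Signs turned for genes that were not called. Spike-in scaling put TNFSF10 at -0.018, TNFRSF10D at -0.23, TNFRSF11B at -0.23, FADD at -0.13, CFLAR at -0.22, MCL1 at -0.12 and BCL2L1 at -0.089. TNFRSF11B was at -0.018 without NT replicate 1 or without slide 1 and ranged from -0.018 to 0.096 over the arrays left out, and CFLAR from -0.032, without TRAIL replicate 4, to 0.0995. The cause of these changes was not tested. Genes near background have only bounds, and slide and TRAIL cannot be told apart against NT.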

Other observations

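Across the genes tested, the deviations of NT arrays from their group mean correlated with those of TRAIL arrays at 0.034 to 0.23 where both arrays were replicates 1 or 2, or both replicates 3 or 4, and at -0.29 to -0.091 otherwise. The deviations of a group cancel for each gene, so the negative values follow from the positive ones and are no separate result. Genes are not independent replicates, and the labels do not say which replicates share an experiment.

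The immediate early gene FOSB lay at -2.54 and -2.52 in NT replicates 1 and 2 and at -2.13 and -2.12 in replicates 3 and 4, and at -1.61 and -1.65 against -0.80 and -0.96 with TRAIL. PTGS2, the inducible prostaglandin synthase, lay at -4.03 and -4.29 against -3.42 and -3.57 in NT and at -2.46 and -2.30 against -1.25 and -0.90 with TRAIL. TAP1, a peptide transporter of antigen presentation, lay at 2.40 and 2.59 against 1.64 and 1.67 in NT and at 3.68 and 3.90 against 3.03 and 3.14 with TRAIL. In these 3 genes, chosen after their values were seen, replicates 3 and 4 differed from 1 and 2 in the same direction in both groups.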
